A study of Mus musculus with 4 samples.

Results

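Mitochondrial ribosomal protein genes were examined in colonic CD4+ T cells of mice with colitis. They were taken by name, as every listed gene whose symbol starts with Mrpl or Mrps and is not marked as a pseudogene, which gave 78 of the 16555 genes in the table. Of these, 49 carry Mrpl symbols and 29 carry Mrps symbols. The libraries labelled dLck-Cre came from donor T cells with floxed CK2α alleles and the dLck-Cre transgene, in which the distal promoter of Lck drives Cre recombinase in mature T cells. The fl/fl libraries came from donor T cells with the same floxed alleles and no Cre. In both groups CD4+CD25-CD45RBhi donor cells had been placed in Rag1-/- hosts, which lack T and B cells of their own but keep epithelial, stromal and myeloid cells. After 6 weeks, cells positive for CD45, CD3 and CD4 were sorted from the colon. Each group had 2 libraries. The labels do not say whether these came from separate animals or pools, so every p-value given here reflects the spread of these libraries alone, and that spread may be technical. The comparison asks whether the genes differ with the loss of CK2α, the catalytic kinase subunit encoded by Csnk2a1.

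The mitochondrial ribosome translates the few proteins encoded by mitochondrial DNA, all of which are parts of the respiratory chain or of ATP synthase. Its protein subunits are encoded in the nucleus, made in the cytosol and imported, and they assemble with ribosomal RNAs made inside the mitochondrion. Many have counterparts in bacterial ribosomes, and others occur only in mitochondria. In activated T cells mitochondrial translation is known to supply the respiratory chain during growth and to be needed for sustained effector function.

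The libraries had between 16777017 and 22422971 reads over all listed genes. Csnk2a1, the gene the deletion targets, did not fall in the cells said to carry Cre. It had 2118 and 2031 normalized counts in the libraries labelled dLck-Cre, compared with 1534 and 1597 in the fl/fl libraries, a log2 difference of 0.41 ± 0.13 (SE; adjusted p = 0.108 by limma). Which exons are floxed is not in the labels, and a count per gene cannot show a deleted exon. The T cell label was checked against 20 T cell identity genes, all of which were detected in every library. These genes took 0.561% to 0.626% of the reads in the libraries labelled dLck-Cre and 0.806% to 0.814% in the fl/fl libraries. Markers of cells outside the sort were present, and most were higher in the libraries labelled dLck-Cre. The 26 epithelial markers summed to 101622 and 135774 normalized counts there, compared with 47357 and 51407 in the fl/fl libraries. The 24 myeloid markers summed to 117837 and 101258 normalized counts in the libraries labelled dLck-Cre, compared with 64872 and 45866 in the fl/fl libraries. By limma at an adjusted p under 0.05, 22 of 26 epithelial and 15 of 24 myeloid markers passed as higher, against 5.75% of all genes. Of the 20 T cell identity genes 7 passed as lower, against 1.22%. Those with the smallest p-values were the epithelial genes Epcam, Muc2, Cldn7 and Elf3, with log2 differences of 1.15 to 1.35. They were Il1b, Cd14, Cd74 and Apoe (1.07 to 1.31) among myeloid genes and Skap1, Cd6, Cd28 and Cd5 (-0.68 to -1.11) among T cell genes. The myeloid genes Ccr2 (-0.11), S100a8 (0.09) and S100a9 (0.13) were among those that did not pass. Of 9 B and plasma cell markers the 3 listed, Igkc, Ighm and Cd79a, summed to 343 and 284 normalized counts in the libraries labelled dLck-Cre, compared with 125 and 81.7 in the fl/fl libraries, and Igkc alone passed the test. No listed marker was at 0 in any library. In bulk libraries fewer cells of a type and less RNA per cell cannot be told apart.

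At the deposited scaling none of the 78 genes passed the test between the groups. A value here is a normalized count, that is, reads divided by 1 scaling factor per library, and a difference is the mean log2(normalized count + 1) of the libraries labelled dLck-Cre minus that of the fl/fl libraries. All 78 passed the filter of a mean of at least 10. Of the 78, 0 were higher and 0 lower at an adjusted p of 0.05 (limma, Benjamini-Hochberg over all genes), and 0 had an unadjusted p under 0.05. Over all 16490 genes tested, 6.97% passed, 5.75% as higher and 1.22% as lower, and 23.9% had an unadjusted p under 0.05. By edgeR 0 members passed, against 6.87% of all genes, and 1, Mrpl12, had an unadjusted p under 0.05, against 23.7% of all genes. By DESeq2 0 passed, against 10.7% of all genes, and 0 had an unadjusted p under 0.05, against 20.1%. DESeq2 gave no adjusted p for Mrpl53. The smallest adjusted p among the members was 0.223, for Mrpl12. The count was also 0 with pseudocounts of 0.5 and 5 (6.94% and 7.16% of all genes passed), with no filter (6.93%) or a mean of at least 50 (9%), with TMM (6.9%) or quantile normalization (2.07%) and with robust limma (7.27%). It was not 0 in every setting. With each library scaled to T cell identity genes, as described below, 43 members passed (55.1%), against 38.1% of all genes. With the replicate number as a block 1 passed, Mrps5 (limma adjusted p = 0.0378), against 12.7% of all genes.

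The members' differences were small and lay on both sides of 0. Of the 78, 38 were above and 40 below 0, with a median of -0.01 and a range of -0.52 to 0.40. The middle of the distribution ran from -0.09 (lower quartile) to 0.14 (upper quartile). Over all genes tested the median was -0.02 and the quartiles were -0.26 and 0.39. A difference of less than 0.5 was seen for 77 members, or 98.7%, against 68.0% of all genes. The exception was Mrps5. The standard errors of the members ran from 0.14 to 0.48 with a median of 0.18, against a median of 0.23 for all genes.

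How large a change these libraries leave room for, at the deposited scaling, can be read from the 95% intervals of the differences. Intervals were computed for that scaling alone. With each library scaled to T cell identity genes, as described below, the median difference of the members was 0.56. For 76 members, or 97.4%, the interval lay wholly within a 2-fold change in either direction, which held for 54.6% of all genes tested. The intervals of Mrps5, down to -1.13, and of Mrpl53, up to 1.33, reached beyond it. For 44 members the interval lay within a 1.5-fold change. A change that lies within a gene's interval is not excluded for that gene by 2 libraries per group.

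**Figure D1:**
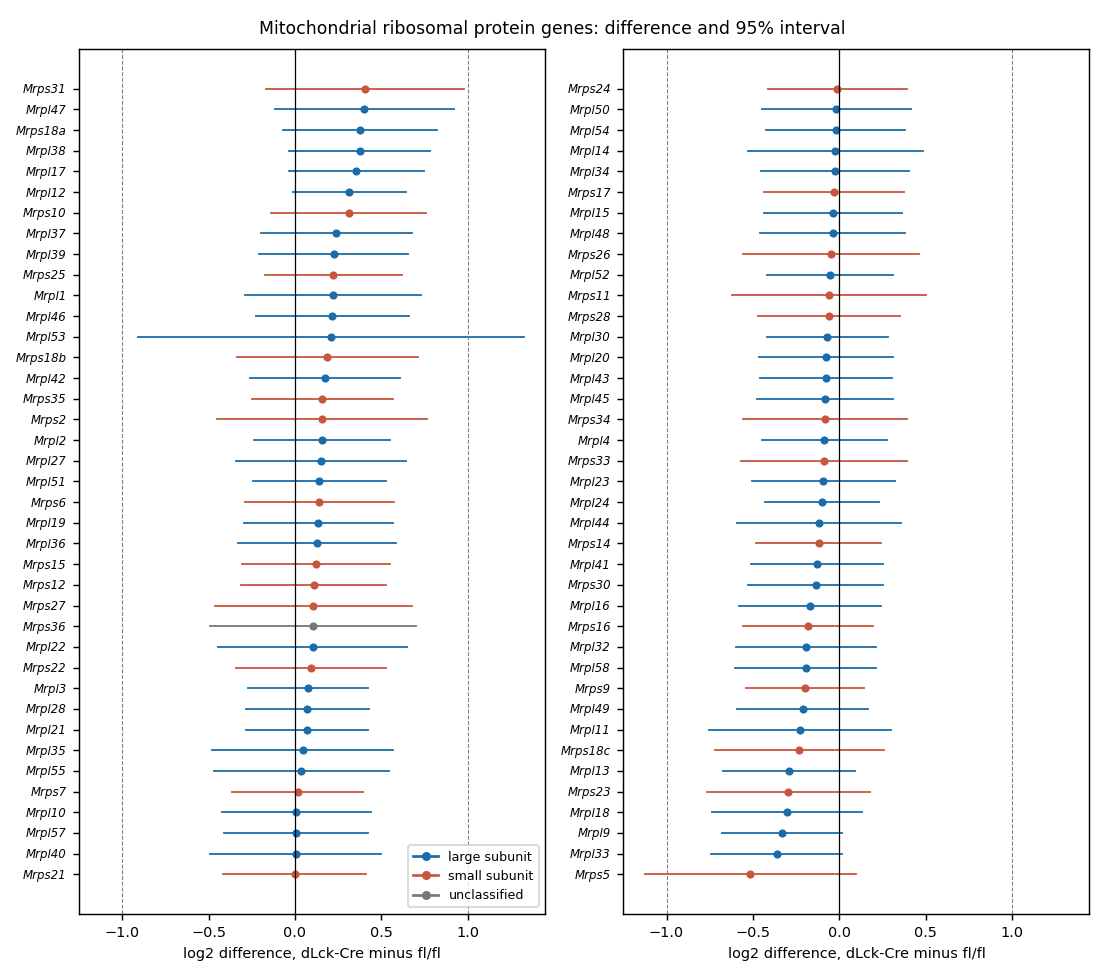
Log2 difference (libraries labelled dLck-Cre minus fl/fl) of each of the 78 genes on the x axis, ordered by difference, with points for the estimates and bars for 95% intervals from limma, coloured by ribosomal subunit. At the deposited scaling every interval includes 0, and the bars of Mrps5 and Mrpl53 alone cross the dashed lines at a 2-fold change.

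For 12 members both of the libraries labelled dLck-Cre lay above both fl/fl libraries, and for 8 both lay below. These are 15.4% and 10.3% of the members, against 27.7% and 27.4% of all genes tested. Beyond the genes described here, the 12 included Mrps25, Mrpl42, Mrpl2, Mrps6, Mrps22 and Mrpl28, and the 8 included Mrpl49, Mrps9, Mrps16, Mrpl16 and Mrps30.

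The lowest differences belonged to genes of both subunits. Mrps5 encodes the mitochondrial counterpart of bacterial S5, which lies near the site where mRNA enters the small subunit. Mrps5 (chromosome 2, 127587222 to 127606829, plus strand, GRCm38) had 1055 and 653 normalized counts in the libraries labelled dLck-Cre, compared with 1424 and 990 in the fl/fl libraries. The groups overlapped, since the higher of the libraries labelled dLck-Cre exceeded the lower fl/fl library. The log2 difference was -0.52 ± 0.26 (SE; limma, adjusted p = 0.28). It was -0.86 (adjusted p = 0.0742) without dLck-Cre replicate 1 and -0.17 (adjusted p = 0.768) without dLck-Cre replicate 2, and by the same test -0.78 without fl/fl replicate 2 and -0.25 without fl/fl replicate 1.

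Mrpl33, which encodes a small protein of the large subunit, had 1200 and 935 normalized counts in the libraries labelled dLck-Cre, compared with 1402 and 1322 in the fl/fl libraries. Both of the libraries labelled dLck-Cre lay below both fl/fl libraries. Its log2 difference was -0.36 ± 0.16 (SE; limma, adjusted p = 0.228), and it was -0.54 without dLck-Cre replicate 1 and -0.18 without dLck-Cre replicate 2. Mrpl9, the counterpart of bacterial L9 (chromosome 3, 94443318 to 94451130, plus strand), had 1569 and 1282 normalized counts in the libraries labelled dLck-Cre, compared with 1761 and 1811 in the fl/fl libraries. The groups did not overlap here either, and the log2 difference was -0.33 ± 0.15 (adjusted p = 0.227). The next members were Mrpl18, the counterpart of a bacterial protein that binds 5S ribosomal RNA (-0.30), the mitochondria-specific Mrps23 (-0.29), Mrpl13 (-0.29), Mrps18c, one of the paralogues related to bacterial S18 (-0.23), and Mrpl11, the counterpart of a protein at the base of the factor-binding stalk (-0.23). Of these, Mrpl13 alone had groups that did not overlap. With 1 library left out in turn the difference ran from -0.48 to -0.12 for Mrpl18 and from -0.48 to -0.11 for Mrps23, and for Mrpl9 it was -0.48 without dLck-Cre replicate 1 and -0.19 without dLck-Cre replicate 2.

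The highest differences also came from both subunits. Mrpl12 encodes the counterpart of the bacterial L7/L12 stalk protein, which recruits translation factors, and in human cells its product has been reported to bind the mitochondrial RNA polymerase. Mrpl12 (chromosome 11, 120484613 to 120489065, plus strand) had 992 and 1003 normalized counts in the libraries labelled dLck-Cre, compared with 771 and 833 in the fl/fl libraries. The groups did not overlap, and the log2 difference was 0.32 ± 0.14 (SE; limma, adjusted p = 0.223). Mrps31, a mitochondria-specific small subunit gene (chromosome 8, 22411361 to 22429665, plus strand), had 292 and 217 normalized counts in the libraries labelled dLck-Cre, compared with 163 and 221 in the fl/fl libraries. These groups overlapped, and the log2 difference was 0.40 ± 0.25 (adjusted p = 0.365). It was 0.19 without dLck-Cre replicate 1 and 0.62 without dLck-Cre replicate 2, and 0.19 and 0.62 without fl/fl replicates 1 and 2.

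The other members at this end were mostly of the large subunit. Mrpl38, a mitochondria-specific protein of the large subunit, had 399 and 386 normalized counts in the libraries labelled dLck-Cre, compared with 282 and 325 in the fl/fl libraries, with a log2 difference of 0.38 ± 0.17 (SE; adjusted p = 0.242 by limma). Mrpl17, the counterpart of bacterial L17, had 423 and 399 normalized counts in the libraries labelled dLck-Cre, compared with 310 and 334 in the fl/fl libraries, with a difference of 0.35 ± 0.17 (adjusted p = 0.249). In both genes the groups did not overlap. Mrpl47, the counterpart of bacterial L29, which lies near the exit of the nascent peptide tunnel, was at 0.40, and Mrps18a, an S18-related protein that sits in the large subunit despite its symbol, at 0.38. Mrps10, the counterpart of bacterial S10, was at 0.31 and the mitochondria-specific Mrpl37 at 0.24, which ran from 0.087 to 0.39 with 1 library left out in turn. The adjusted p-values of these last 4 lay between 0.279 and 0.487.

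The promoters of the members at the ends of the range, and of those with the smallest p-value in each direction, are shown to compare them for letters bound by factors known to act on nuclear genes for mitochondrial proteins. The windows run from 250 bases before to 50 after the start site, 5′ to 3′, from RefSeq on GRCm38.p6. Capitals mark matches on either strand to the NRF1 motif (the 10 capitals in the Mrpl9 window, with any base at the sixth of these letters), to CCGGAAG, a core of the ETS family motif that GABP binds, or to AAGATGG, a core of the YY1 motif.
Mrps5 promoter, chr2:127587176-127587475, plus strand: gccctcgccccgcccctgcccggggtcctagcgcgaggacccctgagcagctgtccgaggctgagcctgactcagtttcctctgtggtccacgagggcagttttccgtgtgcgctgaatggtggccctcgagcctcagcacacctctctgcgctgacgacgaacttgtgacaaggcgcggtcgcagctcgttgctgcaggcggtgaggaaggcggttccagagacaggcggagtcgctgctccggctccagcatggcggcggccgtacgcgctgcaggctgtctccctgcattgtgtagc
Mrpl9 promoter, chr3:94443086-94443385, plus strand: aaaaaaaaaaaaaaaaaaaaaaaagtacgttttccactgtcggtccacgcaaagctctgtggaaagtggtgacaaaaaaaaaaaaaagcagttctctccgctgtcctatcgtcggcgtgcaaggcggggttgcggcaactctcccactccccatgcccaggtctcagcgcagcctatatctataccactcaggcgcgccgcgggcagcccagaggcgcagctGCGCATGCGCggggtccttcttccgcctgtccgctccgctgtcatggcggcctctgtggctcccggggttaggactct
Mrpl12 promoter, chr11:120484387-120484686, plus strand: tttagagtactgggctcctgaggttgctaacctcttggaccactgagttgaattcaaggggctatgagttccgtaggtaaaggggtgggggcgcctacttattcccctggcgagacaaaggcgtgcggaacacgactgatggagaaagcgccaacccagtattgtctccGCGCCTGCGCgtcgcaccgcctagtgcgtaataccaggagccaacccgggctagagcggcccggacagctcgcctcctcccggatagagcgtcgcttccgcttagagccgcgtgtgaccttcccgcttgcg
Mrps31 promoter, chr8:22411090-22411389, plus strand: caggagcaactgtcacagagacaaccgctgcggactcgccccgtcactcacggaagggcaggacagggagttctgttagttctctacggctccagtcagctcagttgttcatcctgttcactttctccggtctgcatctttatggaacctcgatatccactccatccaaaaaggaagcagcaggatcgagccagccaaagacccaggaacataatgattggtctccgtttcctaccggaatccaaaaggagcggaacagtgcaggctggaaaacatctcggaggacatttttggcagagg
Mrpl9 and Mrpl12, whose differences had opposite signs, each held 1 NRF1 match, and the windows of Mrps5 and Mrps31 held none of the 3 motifs.

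Of the 78 members 69 had a RefSeq window. The NRF1 form was in the windows of 13 of them (18.8%), against 10.5% of the 10931 listed genes with a window and 4.6% of all 32851 windows. The ETS core was in 26 (37.7%), against 18.7% of listed genes and 8.86% of windows, and the YY1 core in 13 (18.8%), against 8.19% and 6.34%. At least 1 of the 3 was in 43 members (62.3%), against 32.5% of listed genes. The median expression difference was -0.05 with the NRF1 form and 0.03 without, 0.00 and 0.00 for the ETS core, and 0.04 and -0.01 for the YY1 core. A match is a run of letters and not a shown binding site.

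The members were sorted by their place in the ribosome, from textbook knowledge of the human structure. The large subunit has 51 of them, Mrps30 and Mrps18a included, and the small subunit 26. Mrps36 was left out of this sorting, since its product is also described as part of a metabolic enzyme complex. Large subunit genes had a median difference of -0.02, with 25 above and 26 below 0, and small subunit genes one of -0.01, with 12 above and 14 below. The ratio of summed normalized counts, large over small subunit, was 2.32 and 2.38 in the libraries labelled dLck-Cre, compared with 2.27 and 2.33 in the fl/fl libraries. The groups overlapped in this ratio. The genes with a bacterial counterpart split into 30 of the large subunit (median -0.01) and 16 of the small one (-0.02), and the mitochondria-specific genes into 21 (-0.02) and 10 (0.10). In each of these 4 classes 0 genes passed the test.

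Although the genes code for proteins of 1 particle, their transcript levels were far apart. Per kilobase of exonic length, which allows levels to be compared between genes, the mean over the 4 libraries ran from 26.9 to 2541 normalized counts, a 94.5-fold range, with a median of 271 and quartiles of 161 and 436. Mrpl33 was highest, at 2511 and 1956 normalized counts per kilobase in the libraries labelled dLck-Cre and 2933 and 2766 in the fl/fl libraries. Mrps21 (1434 ± 84.4 in the libraries labelled dLck-Cre and 1448 ± 273 in the fl/fl libraries) and Mrpl52 (1342 ± 40.2 in the libraries labelled dLck-Cre and 1396 ± 164 in the fl/fl libraries; SD, n = 2 each) followed and did not differ from each other beyond their spread. Mrpl53, a mitochondria-specific large subunit gene, was lowest, at 22.6 and 35.3 normalized counts per kilobase in the libraries labelled dLck-Cre, compared with 19.4 and 30.2 in the fl/fl libraries. Its level rests on 13.5 to 24.6 normalized counts per library. Exons of Mrpl33 and Mrpl53 overlap those of another annotated gene on the same strand (Gm43809 and Gm42688). How such reads were counted is not stated, so both ends of the range are uncertain. By mean normalized count Mrps2, the counterpart of bacterial S2, and Mrpl22, the counterpart of bacterial L22, came next above it. Mrps2 had 114 and 126 normalized counts in the libraries labelled dLck-Cre, compared with 126 and 91.7 in the fl/fl libraries, and Mrpl22 had 169 and 131 in the libraries labelled dLck-Cre, compared with 142 and 135 in the fl/fl libraries. The exonic length is the union of all annotated basic transcripts, so it overstates the length of genes with rare long isoforms, such as Mrpl17 at 7605 bases.

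**Figure D2:**
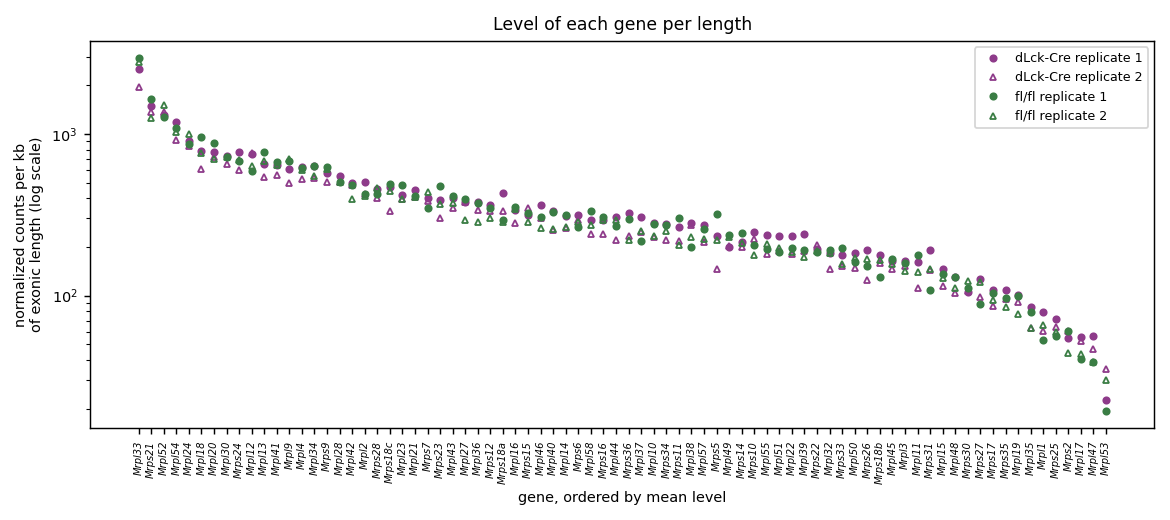
Normalized counts per kilobase of exonic length (log scale) of each gene in each library, ordered by the mean. Levels run from 2541 for Mrpl33 to 26.9 for Mrpl53, and for most genes the 4 libraries lie close together relative to this range.

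Between the 2 libraries labelled dLck-Cre most members differed in 1 direction. In dLck-Cre replicate 2, 69 of the 78 genes (88.5%) were lower than in dLck-Cre replicate 1, with a median log2 difference of -0.25. Over all genes tested 49.1% were lower in that library, with a median of 0.01. In fl/fl replicate 2, 52 of 78 (66.7%) were lower than in fl/fl replicate 1, with a median of -0.08, against 49.3% and 0.01 over all genes. Without regard to sign, the median gap was 0.25 for the members and 0.25 for all genes in the libraries labelled dLck-Cre. In the fl/fl libraries it was 0.19 and 0.22. All genes here are of any level, and genes of like level were not compared. The gap exceeded the difference between the groups for 57 members (73.1%) in the libraries labelled dLck-Cre. This held for 43.9% of all genes, whose differences between the groups were wider. Summed over the members, the normalized counts were 41317 and 34994 in the libraries labelled dLck-Cre, compared with 40576 and 38040 in the fl/fl libraries, so that the groups overlapped. As a share of reads this was 0.236% and 0.191% in the libraries labelled dLck-Cre, compared with 0.211% and 0.195% in the fl/fl libraries.

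The same split moved the median difference between the groups with the library left out. It was -0.14 without dLck-Cre replicate 1 and 0.12 without dLck-Cre replicate 2, and 0.06 and -0.06 without fl/fl replicates 1 and 2. The number of members passing stayed at 0 in each case, while 7.51% of all genes passed without dLck-Cre replicate 1, and 6.37% and 6.49% without fl/fl replicates 1 and 2. Without dLck-Cre replicate 2, limma called 0 of all 16136 genes, so the count of members says nothing there.

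**Figure D3:**
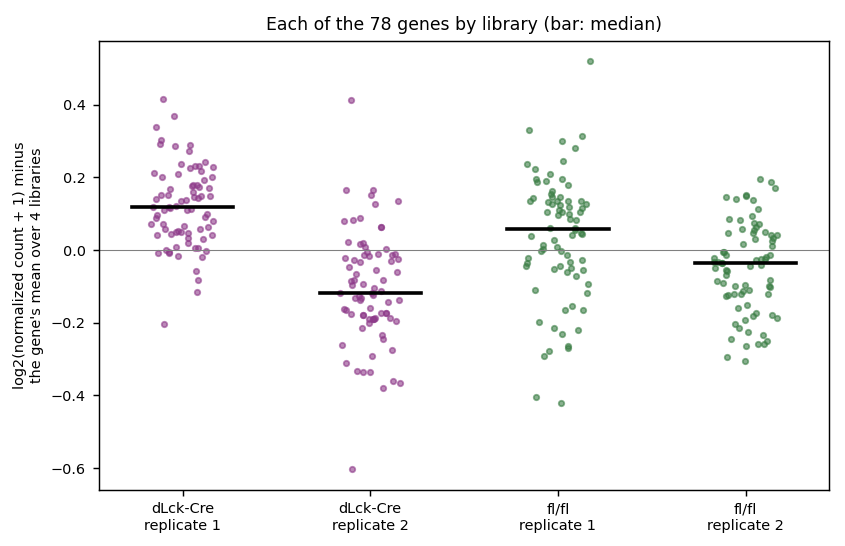
Log2(normalized count + 1) of each of the 78 genes in each library, as the deviation from that gene's mean over the 4 libraries. Bars are medians. Most genes lie above their mean in dLck-Cre replicate 1 and below it in dLck-Cre replicate 2, and the fl/fl libraries fall between.

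Mrps5, Mrps26, Mrps11 and Mrpl53 had the widest gaps between replicates. Mrps26, a mitochondria-specific small subunit gene, had 824 and 535 normalized counts in the libraries labelled dLck-Cre, compared with 655 and 720 in the fl/fl libraries. Mrps11, whose bacterial counterpart lies on the platform of the small subunit, had 280 and 228 in the libraries labelled dLck-Cre, compared with 318 and 218 in the fl/fl libraries. In both genes the groups overlapped. Among the members with the highest mean counts was Mrpl24, the counterpart of bacterial L24, which had 1411 and 1308 normalized counts in the libraries labelled dLck-Cre, compared with 1358 and 1559 in the fl/fl libraries (log2 difference -0.10 ± 0.14 SE; limma, adjusted p = 0.726).

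Among all coding genes the difference of dLck-Cre replicate 2 minus replicate 1 rose with exonic length, which it did not among the members. The members are short, with a median exonic length of 1380.5 bases against 3292 for the 13065 coding genes with a length. Among all coding genes under 1000 bases, the median log2 difference of dLck-Cre replicate 2 minus replicate 1 was -0.12, and among those of at least 5000 bases it was 0.09. The members were lower than this in each length class, at -0.17 under 1000 bases (22 members), -0.25 from 1000 to 2000 (30), -0.29 from 2000 to 3000 (8), -0.32 from 3000 to 5000 (12) and -0.16 above (6). In the 3 classes between, all coding genes were at -0.10, -0.04 and -0.00. The classes were chosen after the data were seen, and the last 3 hold few members. Epithelial markers had a median of 0.49 between the same libraries, T cell identity genes of -0.19 and myeloid markers of -0.15. The part of length and of other cells in the members' gap was not tested.

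**Figure D4:**
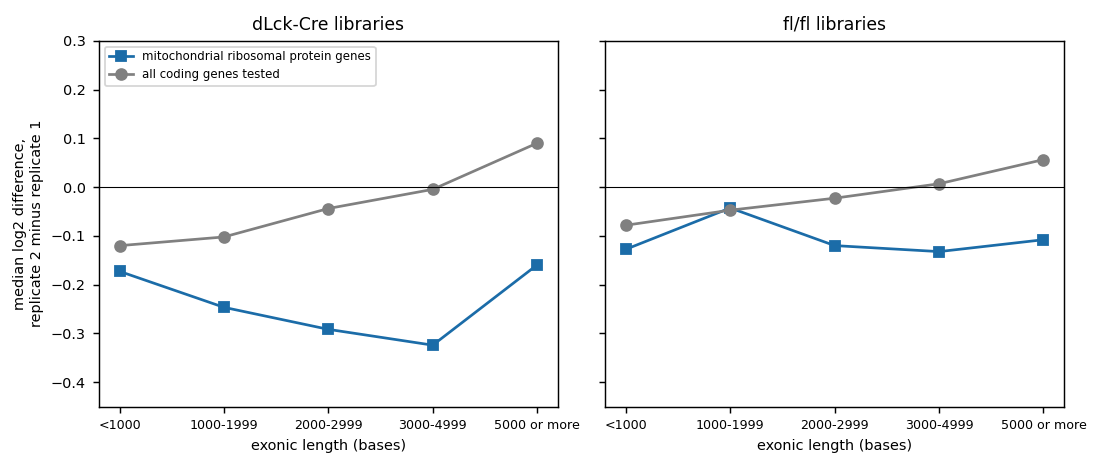
Median log2 difference between replicates (replicate 2 minus replicate 1) by class of exonic length in bases, for the members and for all coding genes tested, in the libraries labelled dLck-Cre (left) and the fl/fl libraries (right). Between the libraries labelled dLck-Cre the members run from -0.32 to -0.16, below all coding genes in every class.

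The result depended on what the libraries were scaled to. The deposited values carry 1 scaling factor per library, and among the 20 T cell identity genes 7 fell and 0 rose, with a median difference of -0.53. When each library was scaled to the sum of these 20 genes, the median of all genes moved to 0.54 and that of the members to 0.56, 0.02 above all genes. All 78 members were then above 0, Mrps5 included at 0.05, and 43 passed as higher (55.1%) and 0 as lower, against 37.8% and 0.302% of all genes. Since the members' median moved with that of all genes, these shares are not read as a result about the members. At the deposited scaling the members had a median standard error of 0.18, against 0.23 for all genes. Its part in the shares was not tested. Csnk2a1, the targeted gene, was at 0.97 on this scale and passed as higher too (limma adjusted p = 0.00503). Relative to the sum of T cell identity genes, the members' sum was 37.6 and 34.0 per 100 in the libraries labelled dLck-Cre, compared with 25.9 and 24.2 in the fl/fl libraries. Summed epithelial and myeloid markers stood higher in dLck-Cre replicates 1 and 2 than in either fl/fl library, and the part of RNA from such cells in this ratio was not tested.

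The genes for the other proteins of the mitochondrial ribosome and for its helpers did not pass the test either. The 5 subunit genes under other symbols, Dap3, Chchd1, Aurkaip1, Ptcd3 and Gadd45gip1, had a median of -0.04 and 0 passed. Dap3, which encodes a GTP-binding protein of the small subunit, had 1024 and 844 normalized counts in the libraries labelled dLck-Cre, compared with 1198 and 978 in the fl/fl libraries (log2 difference -0.22 ± 0.17 SE; limma, adjusted p = 0.486). Of 18 mitochondrial translation factors 0 passed, with a median of 0.01. Tufm, the elongation factor that delivers aminoacyl-tRNA, was at 0.25, Guf1, related to bacterial LepA, at -0.30, Gatb, a subunit of the enzyme that makes glutaminyl-tRNA, at 0.33, and Oxa1l, which inserts proteins into the inner membrane, at -0.18. Of 17 mitochondrial aminoacyl-tRNA synthetases 0 passed, with a median of 0.06. Among them Lars2, the leucyl-tRNA synthetase, had 2612 and 1542 normalized counts in the libraries labelled dLck-Cre, compared with 2177 and 5843 in the fl/fl libraries, so that 1 fl/fl library stood far above the rest. Its difference was -0.83 ± 0.44 (SE; limma, adjusted p = 0.296), -1.54 without fl/fl replicate 1, where it passed (adjusted p = 0.00739), and -0.12 without fl/fl replicate 2. Aars2 (0.30), Wars2 (0.28) and Yars2 (0.27), the alanyl, tryptophanyl and tyrosyl enzymes, had the next smallest p-values. Of 24 assembly and RNA-processing factors 0 passed, with a median of 0.03, and Rbfa (-0.38), C1qbp (0.29), Mettl17 (0.29) and Slirp (0.23) had the smallest p-values. In these 4 lists 0 genes had an unadjusted p under 0.05 (limma), against 23.9% of all genes. By limma, edgeR and DESeq2 0 passed, against 6.97%, 6.87% and 10.7% of all genes, shares at which short lists hold few calls.

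Genes for mitochondrial DNA expression and for the regulators of mitochondrial biogenesis held the 2 genes that passed. Polg2, the accessory subunit of the mitochondrial DNA polymerase, had 1044 and 957 normalized counts in the libraries labelled dLck-Cre, compared with 1555 and 1720 in the fl/fl libraries, a log2 difference of -0.71 ± 0.14 (SE; adjusted p = 0.0329 by limma). It fell, as 1 of 15 genes of mitochondrial DNA expression and maintenance, whose median was -0.03. That count is close to the 6.97% of all genes that passed. Its difference was -0.64 without fl/fl replicate 2 (limma adjusted p = 0.111), which ended its call, and -0.65 without dLck-Cre replicate 2 (adjusted p = 0.114), where no gene passed. Polg2 also passed as lower by edgeR (adjusted p = 0.0318) and DESeq2 (adjusted p = 0.00299). After scaling to T cell identity genes its difference was -0.15 (limma adjusted p = 0.388). Tfam, which packages mitochondrial DNA and starts its transcription, was at -0.42 ± 0.18 (adjusted p = 0.21) and Hsd17b10, a subunit of mitochondrial RNase P, at -0.51 ± 0.16 (adjusted p = 0.108). Polg, the catalytic subunit that Polg2 serves, was at 0.23 ± 0.13 (adjusted p = 0.337).

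Esrra, a nuclear receptor that activates genes of mitochondrial energy metabolism, had 1595 and 1631 normalized counts in the libraries labelled dLck-Cre, compared with 944 and 1065 in the fl/fl libraries, a log2 difference of 0.69 ± 0.14 (SE; adjusted p = 0.0337 by limma). It rose, as 1 of 11 regulators, whose median was -0.10, and this count too is close to the 6.97% of all genes. Epithelial markers, with a median of 1.31 (22 of 26 higher), and myeloid markers, with a median of 1.10 (15 of 24 higher), moved with it, and their part in the Esrra difference was not tested. Esrra also passed as higher by edgeR (adjusted p = 0.0296) and DESeq2 (adjusted p = 0.00426). After scaling to T cell identity genes it was at 1.25 (limma adjusted p = 0.00423), where the median of all genes was 0.54. Leaving out dLck-Cre replicate 1 gave a difference of 0.70 (limma adjusted p = 0.0546), and leaving out fl/fl replicate 1 gave 0.60 (limma adjusted p = 0.124), both short of the threshold. Leaving out fl/fl replicate 2 gave 0.77 and kept the call (limma adjusted p = 0.0488). Leaving out dLck-Cre replicate 2, where no gene passed, gave 0.67 (limma adjusted p = 0.116). Its partner coactivator gene Ppargc1a had 39.7 and 75.3 normalized counts in the libraries labelled dLck-Cre, compared with 26.0 and 19.9 in the fl/fl libraries (log2 difference 1.23 ± 0.42, adjusted p = 0.131). Nrf1, whose motif was searched above, had 1129 and 1073 normalized counts in the libraries labelled dLck-Cre, compared with 1433 and 1468 in the fl/fl libraries (-0.40 ± 0.13, adjusted p = 0.122), and Gabpb1, a subunit of GABP, differed by -0.45 ± 0.16 (adjusted p = 0.136). Of the 11 regulators, 3 were higher and 2 lower at an unadjusted p under 0.05 (limma), against 23.9% of all genes in either direction.

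Those transcripts translated by the mitochondrial ribosome that were in the table did not pass either, and their replicates differed in the opposite direction to the members. Of 15 mitochondrially encoded genes looked for, 9 were in the table and tested, and the rest could not be assessed. Of these 9 genes 0 passed, with a median difference of 0.31 and 8 above 0. Their levels were very uneven, from 20.9 to 32.0 normalized counts per library for mt-Co3 to 40375 to 66157 for mt-Co1. Whether the counting played a part in this was not tested. All 9 were higher in replicate 2 than in replicate 1 of both groups, with medians of 0.71 in the libraries labelled dLck-Cre and 0.70 in the fl/fl libraries. mt-Nd5, a subunit of complex I, had 3283 and 4565 normalized counts in the libraries labelled dLck-Cre, compared with 1773 and 3867 in the fl/fl libraries (log2 difference 0.56 ± 0.34 SE; limma, adjusted p = 0.36). That difference was 1.13 without fl/fl replicate 2, where it passed (limma adjusted p = 0.0169), and 0.0015 without fl/fl replicate 1. Their differences between the groups were 0.73 for mt-Nd3, 0.60 for mt-Nd6 and 0.47 for mt-Nd4.

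**Figure D5:**
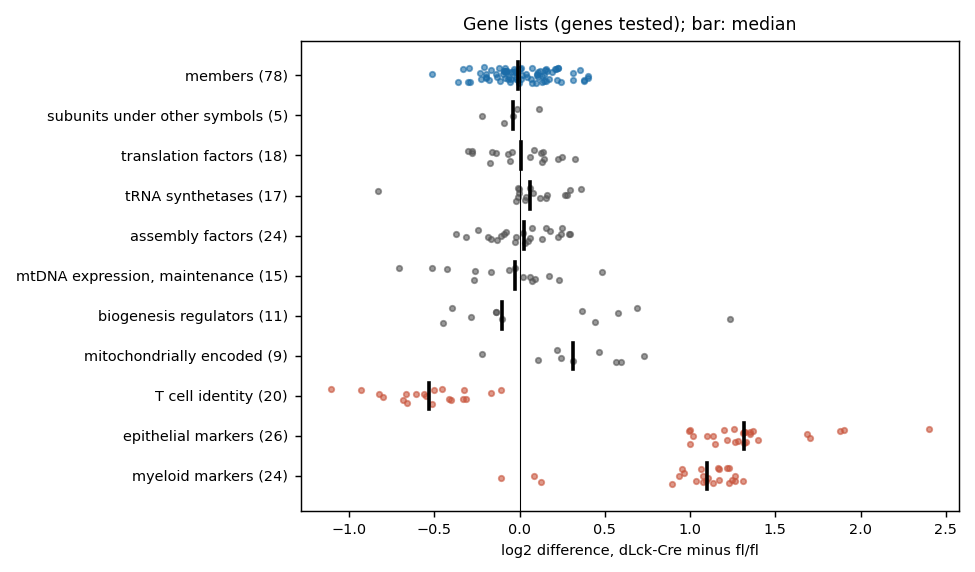
Log2 difference (libraries labelled dLck-Cre minus fl/fl) of each tested gene, one row per list, with the number of genes tested in brackets and bars at the medians. The members and the lists of mitochondrial translation sit around 0, T cell identity genes have a median of -0.53, and epithelial and myeloid markers of 1.31 and 1.10.

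The counting was not stated to use strand, and exons of 26 members overlap those of another annotated gene. Examples are Mrpl9 with Oaz3, Mrpl18 with Tcp1, Mrpl13 with Mtbp, Mrpl47 with Actl6a and Ndufb5, and Mrpl12 with Gm16755. Others are Mrpl33 with Gm43809, Mrpl53 with Gm42688 and Ccdc142os, and Mrpl43 with Twnk. Reads of such pairs cannot be told apart. Among the 52 members without such overlap, a split chosen after the data were seen, 0 passed, the median difference was -0.01, and 48 were lower in dLck-Cre replicate 2 than in replicate 1. Annotated pseudogenes carry the names of 3 members, Mrpl23, Mrpl48 and Mrps36, whose counts are therefore uncertain.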

How the data were processed

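RNA sequencing of sorted colonic CD4+ T cells was taken from 1 deposited table of 4 libraries, 2 per donor genotype. The submitters' processing notes name the build mm10. No aligner, counter, strand setting or annotation is given in the sources used here. What the authors deposited is a scaled signal, in which each library's gene counts share 1 divisor: in every library 100% were whole multiples of 1 step (tolerance 1e-06), which returned whole reads, and every listed gene had at least 41 reads in total.

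Genes with a mean of at least 10 (16490 of 16555) were tested as log2(value + 1) with limma 3.58.1 (trend, two-sided) in R 4.3.3, adjusted by Benjamini-Hochberg over all genes at 0.05. A fold change on this scale understates the change of low genes. On the recovered reads edgeR 4.0.16 called 1133 and DESeq2 1.42.0 called 1768 genes. Other alternatives were pseudocounts of 0.5 and 5, other filters, TMM and quantile normalization, scaling to T cell identity genes, no trend, robust estimation, the replicate number as a block, and leaving out each library.

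The members and lists were chosen with earlier results of these data known. Members were named when they passed the threshold, were among the 8 highest or 8 lowest differences, the 6 highest or 3 lowest levels or the 4 widest replicate gaps, and list genes when among the 4 smallest p-values of their list. Other names were chosen after their values were seen. Coordinates, exons and lengths came from GENCODE's basic annotation on GRCm38, the assembly of mm10, in which each of the 78 symbols matched 1 gene. Promoters came from RefSeq. Figures were drawn with matplotlib 3.10.9.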

Additional observations from a re-analysis of the deposited data

How the results depend on the processing

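Scaling to T cell identity genes moved the median difference of the members to 0.56 and the number passing as higher to 43. It turned the sign of Mrps5 (0.047), Mrpl33 (0.20), Mrpl9 (0.23), Mrpl18 (0.26), Mrps23 (0.27), Mrpl13 (0.27), Mrps18c (0.33), Mrpl11 (0.34), Mrpl24 (0.46), Mrps11 (0.50) and Mrps26 (0.51), and of Dap3 (0.34), Chchd1 (0.47), Aurkaip1 (0.52), Guf1 (0.26), Oxa1l (0.39), Rbfa (0.19), Hsd17b10 (0.051), Tfam (0.14), Nrf1 (0.16) and Gabpb1 (0.12), as all genes moved up by a like amount. It turned 40 members in all. Quantile normalization turned 15 members to below 0, Mrps2 (-0.077) and Mrpl22 (-0.11) among those described, and edgeR turned 5 to above 0, Mrps26 (0.00103) among them, TMM 2 and DESeq2 1; the cause was not tested. With each library left out in turn, the members' median ran from -0.14 to 0.12. The differences ran from -0.48 to 0.021 for Mrps18c, -0.49 to 0.040 for Mrpl11, -0.20 to 0.00028 for Mrpl24, -0.10 to 0.52 for Mrpl53, -0.069 to 0.38 for Mrps2, -0.080 to 0.29 for Mrpl22, -0.36 to 0.26 for Mrps26 and -0.33 to 0.22 for Mrps11. They ran from -0.079 to 0.31 for Gadd45gip1, -0.18 to 0.10 for Aurkaip1, -0.00039 to 1.19 for mt-Nd6 and -0.093 to 1.03 for mt-Nd4. Where a group was left with 1 library, that library is assumed to vary like the others. The calls of Polg2 and Esrra were also lost under quantile normalization (adjusted p = 0.0603 and 0.053, limma) and without limma's trend (0.135 and 0.139), where 0 of all genes passed. With the replicate number as a block, 1 member passed as lower (Mrps5, limma adjusted p = 0.0378), 6 had an unadjusted p under 0.05, and 12.7% of all genes passed. The samples share only a number: deviations of same-numbered samples correlated at 0.11 over 2 pairs. No member passed under the other pseudocounts, filters and normalizations, robust limma, edgeR or DESeq2. Depth limits Mrpl53 most, with 13 to 30 reads per library.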
